A study of Mus musculus with 81 samples.

Results

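The genes described here are Naip1, Naip2, Naip5, Naip6 and Nlrc4, 5 mouse genes that encode the Naip flagellin and secretion-system sensors and their shared partner. They were followed by gene symbol in bone marrow neutrophils of inbred mouse strains, and 4 of the 5 had a probe set, 1 each, among the 24922 probe sets of the deposited table (Naip2 10411595, Naip5 10411611, Naip6 10411622 and Nlrc4 10452879). No probe set used here carried the symbol Naip1, whose level was not analysed here. Cells positive for CD11b and Ly6G were sorted from the bone marrow of male mice aged 6 weeks, each sample from a pool of a few mice, and 81 Affymetrix ST1.0 arrays were measured. The single animals of a pool cannot be told apart. In tests between single strains the p-values measure the spread between pools. In tests between groups of strains they measure the spread between strain means, and for correlations strain means were permuted. Titles put the arrays in 40 groups, 1 per strain. The 5 wild-derived groups were PWD/PHJ, WSB/EiJ, MSM/Ms, CAST/EiJ and JF1/Ms. The 4 groups called the C57 family were C57BL/10J, C57BLKS/J(662), C57L/J (668) and C57BL/6J. The other classical groups were 129S1/SvImJ, A/J, AKR/J, C3H/HeJ, CBA/CaJ, CBA/J, CE/J, DDY/JclSidSeyFrkJ, FVB/NJ, KK.Cg-Ay/J, LGJ, LP/J(676), MA/MyJ, MRL/MpJ, NOD/ShiLtJ, NON/ShiLtJ, NOR/LtJ, NZB/BINJ, NZW/LacJ, P/J, PL/J, RIIIS/J, SEA/GnJ, SJL/J, SM/J and SWR/J, with 5 groups whose title and genetic background label disagree. Those 5 are called titled BPL (labelled BALB/cByJ), titled BTBR (labelled BPL/1J), titled Balb (labelled BTBR T+ tf/J), titled C57BR (labelled CBA/CaJ) and titled DBA2 (labelled DBA/1LacJ). Each group held 2 arrays apart from C57BL/6J with 5 and both SWR/J and FVB/NJ with 1. No group carried a treatment, and KK.Cg-Ay/J carries the yellow allele of agouti that its name gives.

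Naip proteins are sensors of the cytosol that bind parts of bacteria directly. Naip5 and Naip6 bind flagellin, the subunit of the bacterial flagellum, Naip2 binds the inner rod protein of type III secretion systems, and Naip1 binds the needle protein. A Naip with its ligand recruits Nlrc4, which assembles into a ring that activates caspase-1, and caspase-1 matures interleukin-1 beta and interleukin-18 and cleaves gasdermin D. Neutrophils carry this inflammasome and release interleukin-1 beta through it, and the A/J allele of Naip5 is the textbook cause of permissiveness of that strain's macrophages for Legionella pneumophila.

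In the reference strain the Naip genes lie side by side on the minus strand of chromosome 13, and Nlrc4 lies on the minus strand of chromosome 17. The windows of 250 bases before to 50 bases after the gene starts of Naip2, Naip5 and Naip6 are shown because their 3 probe sets varied over strains in partly different ways. The sequences are those of RefSeq, build GRCm38.p6, read 5′ to 3′ on the gene's strand, at chr13:100202073-100202372 for Naip2, chr13:100247287-100247586 for Naip5 and chr13:100316567-100316866 for Naip6. Capitals mark the letters that are the same in Naip2 and Naip5 within their best local alignment.
Naip2 promoter: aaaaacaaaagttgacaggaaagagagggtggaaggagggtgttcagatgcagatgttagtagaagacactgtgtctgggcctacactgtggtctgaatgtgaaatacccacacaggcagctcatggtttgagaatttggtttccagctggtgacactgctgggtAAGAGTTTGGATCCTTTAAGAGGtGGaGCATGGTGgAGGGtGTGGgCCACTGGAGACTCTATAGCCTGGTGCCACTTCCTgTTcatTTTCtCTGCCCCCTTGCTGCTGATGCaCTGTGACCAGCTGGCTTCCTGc
Naip5 promoter: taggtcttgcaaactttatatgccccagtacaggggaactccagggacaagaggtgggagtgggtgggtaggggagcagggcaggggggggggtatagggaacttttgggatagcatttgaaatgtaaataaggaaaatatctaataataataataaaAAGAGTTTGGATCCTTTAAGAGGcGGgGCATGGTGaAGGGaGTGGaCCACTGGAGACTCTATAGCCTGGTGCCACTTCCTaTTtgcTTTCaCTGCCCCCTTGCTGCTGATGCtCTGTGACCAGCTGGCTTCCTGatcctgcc
Naip6 promoter: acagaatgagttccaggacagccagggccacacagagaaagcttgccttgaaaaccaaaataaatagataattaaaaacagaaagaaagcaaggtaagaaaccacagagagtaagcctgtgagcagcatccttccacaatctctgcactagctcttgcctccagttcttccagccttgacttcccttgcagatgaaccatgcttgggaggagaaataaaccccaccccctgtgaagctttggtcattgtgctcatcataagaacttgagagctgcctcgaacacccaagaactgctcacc
The alignment of Naip2 and Naip5 covered 134 columns without a gap, of which 123 (91.8%) were identical, from position -85 to 49 in Naip2 and from -92 to 42 in Naip5, counted from the gene start. Their longest identical run was 34 bases. The Naip6 window had no such block: its longest run in common was 8 bases with Naip2 and 7 bases with Naip5. The longest identical run of the Naip1 window was 14 bases with that of Naip5 and 11 with that of Naip2. Its best local alignment with Naip5 covered 47 columns, 37 identical (78.7%) and 3 with a gap. That with Naip2 covered 83 columns, 62 identical (74.7%) and 14 with a gap. Of 7 motifs searched on both strands, the ETS motif AGGAAGT, of the type bound by the myeloid factor PU.1, occurred once in the Naip2 window, once in that of Naip5 and at 2 sites in that of Nlrc4 (chr17:74459059-74459358), and in neither the Naip6 nor the Naip1 window, against 9.35% of all 32851 promoter windows. In Naip2 and Naip5 it lay on the opposite strand, at the end of the identical run, with its first base at -12 in Naip2 and -19 in Naip5. The composite of GGAA and GAAA with any 2 bases between them, of the type bound by PU.1 with an interferon regulatory factor, and the repeat of GAAA and GAAA with any 2 bases between them occurred in none of the 5 windows, against 2.72% and 3.44% of all windows. TATAAA occurred in the Naip5 and Naip1 windows (13.6% of all windows), CCAAT in that of Naip1 (37.4%), and TGANTCA (7.81%) and GGGA followed after any 4 bases by CC (20.7%) in none. These matches describe the reference sequence, and the sequences of the other strains were not used here.

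Values below are log2 intensities of single probe sets, so that a difference of 1 is a doubling of intensity, and they compare strains, not genes with each other. Probes were designed on the C57BL/6J reference sequence, so less RNA and weaker binding of a strain's own sequence cannot be told apart where a strain reads lower. The Naip genes are close relatives, and whether a probe set also reads RNA of another Naip gene was not tested. In sorted cells measured in bulk, fewer cells with a transcript and less of it per cell cannot be told apart either. Neutrophil markers were bright in every strain. The mean of 12 such markers lay between 13.27 and 13.41 in all 40 groups, and Ly6g and Itgam, the genes of the sorted surface proteins, averaged 13.64 and 12.66. These probe sets lie near the top of the intensity scale, so their narrow range does not measure whether the sorted cells were equally pure. The mean of 8 T and NK cell markers ran from 5.96 in titled C57BR to 6.78 in FVB/NJ. The mean of the 10 measured of 12 monocyte and macrophage markers ran from 7.02 in FVB/NJ to 7.87 in titled BTBR. Over strains it had an r with Naip2, Naip5, Naip6 and Nlrc4 of 0.04, -0.03, 0.02 and 0.23. The mean of 12 cell cycle genes was highest in NON/ShiLtJ at 9.60 and lowest in NOR/LtJ at 6.89, with r of 0.11, -0.11, -0.16 and 0.26. NZB/BINJ replicate 1 stood apart from the other arrays: it had a median correlation of 0.962 with them, against 0.972 or more for each of the rest.

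Naip5 and Naip6 differed widely between strains, Naip2 did so mainly through PWD/PHJ, and the intensity of Nlrc4 differed little. The Nlrc4 probe set averaged 4.79, near the bottom of the scale, so its narrow range does not show that its RNA was level. Naip5, a flagellin sensor, spanned 4.86 log2 units from its lowest to its highest strain mean, a 29.0-fold range. The other flagellin sensor, Naip6, spanned 3.67 units (12.7-fold). The rod sensor Naip2 spanned 4.77 units (27.2-fold), and the adaptor Nlrc4 spanned 0.61 units (1.53-fold). In limma's moderated F test over all probe sets, all 4 passed an adjusted p of 0.05, as did 56.0% of all probe sets, and 3 of the 4 also had a range of at least 1, as did 24.5% of all probe sets. The adjusted p was 8.5e-26 for Naip2, 1.6e-27 for Naip5, 5.7e-19 for Naip6 and 0.0346 for Nlrc4. Both conditions were met by 42.5% of the probe sets that averaged 7 or more, as the 3 Naip genes do, and by 10.7% of the dimmer ones, such as Nlrc4, of which 33.9% passed at any range. The SD of the 40 strain means was 0.73 for Naip2, 0.84 for Naip5, 0.74 for Naip6 and 0.15 for Nlrc4, and 1.43%, 0.871%, 1.35% and 47.1% of all probe sets had one as large. Arrays of the same strain varied with an SD of 0.15 for Naip2, 0.17 for Naip5, 0.25 for Naip6 and 0.15 for Nlrc4. For Nlrc4 both SDs were 0.15, but averaging over arrays, mostly 2, narrows that of strain means, so the 2 are not like measures. The Nlrc4 call was lost with every array set to a common median (adjusted p = 0.0653) and without the groups of conflicting labels (0.0555). The call was lost as well without NZB/BINJ, a choice made after seeing the data (0.0613). It was also lost when a single array was left out, for 7 of the arrays: NZB/BINJ replicate 1, titled C57BR replicate 2, C57L/J (668) replicate 2, DDY/JclSidSeyFrkJ replicate 2, MSM/Ms replicate 1 and either array of MA/MyJ.

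**Figure D1:**
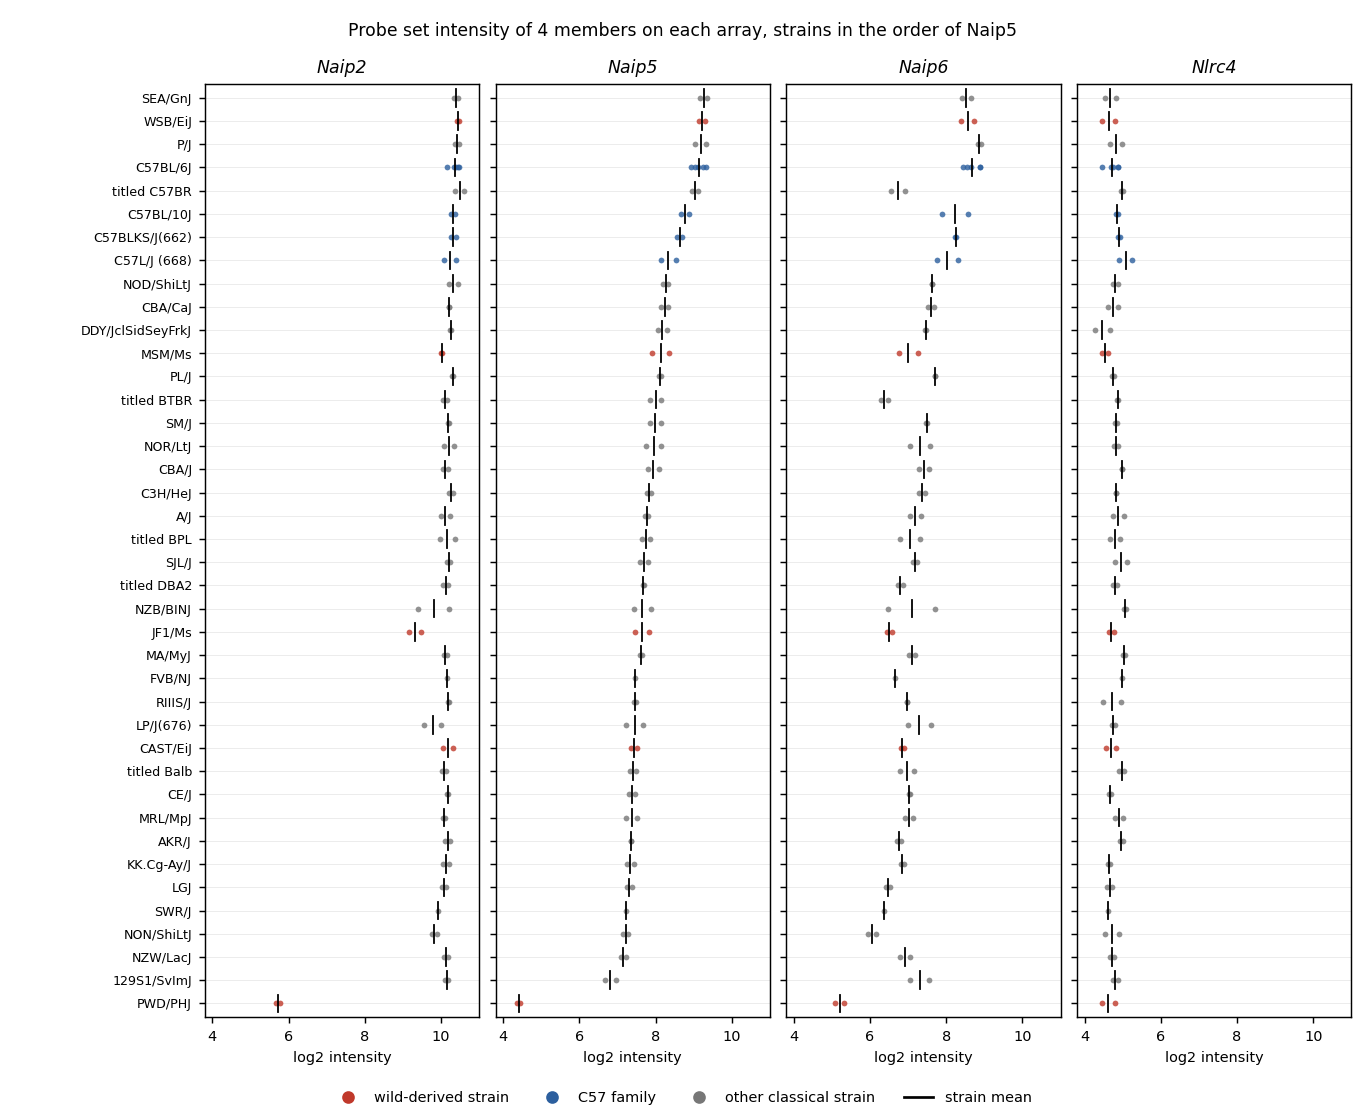
Log2 intensity (x axes) of the probe sets of Naip2, Naip5, Naip6 and Nlrc4 on each of the 81 arrays (points) in the 40 strains (1 line each, in the order of their Naip5 mean), with the strain mean as a bar. PWD/PHJ (lowest line) stands far below every other strain for Naip2, Naip5 and Naip6 and within the others for Nlrc4; titled C57BR, whose labels disagree, is coloured with the other classical strains.

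The order of strains for Naip5 was led by SEA/GnJ at 9.26 ± 0.14, WSB/EiJ at 9.21 ± 0.12, P/J at 9.18 ± 0.20, C57BL/6J at 9.13 ± 0.16 (n = 5) and titled C57BR at 9.04 ± 0.10 (SD, n = 2 except where given). C57BL/10J at 8.78, C57BLKS/J(662) at 8.63 and C57L/J (668) at 8.34 came next. The order ended with NON/ShiLtJ at 7.21, NZW/LacJ at 7.15, 129S1/SvImJ at 6.82 and PWD/PHJ at 4.41. Of the 39 steps between neighbours in this order, 2 exceeded the 95% limit of their own error: 0.34 between NZW/LacJ and 129S1/SvImJ, and 2.41 between 129S1/SvImJ and PWD/PHJ. Among the strains between the ends no neighbours differed beyond their error. With mostly 2 arrays per strain this cannot tell a gradient from separate clusters.

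Naip6 was led by P/J at 8.87 ± 0.06, C57BL/6J at 8.68 ± 0.20, WSB/EiJ at 8.56 ± 0.23 and SEA/GnJ at 8.52 ± 0.16. It ended with SWR/J at 6.38 (1 array), NON/ShiLtJ at 6.06 ± 0.14 and PWD/PHJ at 5.20 ± 0.17. A single step of its order, the 0.86 between NON/ShiLtJ and PWD/PHJ, exceeded the 95% limit. The 4 strains at the top of Naip6 were also at ranks 1 to 4 for Naip5.

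Naip2 was nearly level over the strains apart from 2 of them. Its highest mean was 10.49 ± 0.15 in titled C57BR, and 38 strains, both ends included, lay between that value and the 9.78 of LP/J(676). JF1/Ms followed at 9.31 ± 0.22 and PWD/PHJ at 5.72 ± 0.07. The steps of 0.47 from LP/J(676) to JF1/Ms and of 3.59 from JF1/Ms to PWD/PHJ exceeded the 95% limit. Nlrc4 ran from 5.07 ± 0.24 in C57L/J (668) to 4.46 ± 0.27 in DDY/JclSidSeyFrkJ, and none of its 39 steps exceeded the limit. Its intensity was near the bottom of the scale, with 10.7% of probe sets at a lower mean.

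PWD/PHJ, a strain derived from wild Mus musculus musculus, had the lowest Naip2, Naip5 and Naip6 of all 40. Its arrays read 5.67 and 5.77 for Naip2, against 10.15 to 10.46 on the 5 C57BL/6J arrays. For Naip5 they read 4.36 and 4.45, against 8.93 to 9.33 in C57BL/6J. For Naip6 they read 5.08 and 5.32, against 8.44 to 8.89 in C57BL/6J. No PWD/PHJ array reached any array of another strain for these 3 genes. In this contrast 1.72% of probe sets were lower by at least 1. The difference PWD/PHJ minus C57BL/6J was -4.64 ± 0.13 for Naip2 (SE; 25.0-fold lower; limma adjusted p = 8.5e-34), -4.73 ± 0.14 for Naip5 (26.5-fold lower; 1.3e-32) and -3.48 ± 0.19 for Naip6 (11.2-fold lower; 1.6e-20). Few probe sets lay as far below C57BL/6J in this strain: 6 of 24922 had a difference at or below that of Naip5, 7 at or below that of Naip2 and 21 at or below that of Naip6, these genes included. Nlrc4 read 4.45 and 4.79 in PWD/PHJ, against 4.46 to 4.88 in C57BL/6J, so the groups overlapped, and its difference of -0.10 ± 0.12 did not pass (adjusted p = 0.661). In PWD/PHJ 6.93% of probe sets read lower than Naip5 and 24.7% lower than Naip2. The monocyte and macrophage markers averaged 7.37 in PWD/PHJ, against a median of 7.38 over strains, the neutrophil markers 13.32, against 13.34, and the cell cycle genes 7.46, against 8.19. Without PWD/PHJ the range over strains was 1.18 for Naip2, 2.45 for Naip5 and 2.81 for Naip6, and the SD of strain means was 0.21, 0.64 and 0.67, with 27.0%, 2.13% and 1.82% of all probe sets at one as large over the same 39 strains.

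Against C57BL/6J, most strains read lower for both flagellin sensors and few for the rod sensor. Naip5 was lower by at least 1, with an adjusted p under 0.05, in 28 of 39 strains, Naip6 in 32, Naip2 in 2 and Nlrc4 in 0, and none of the 4 genes was higher by at least 1 in any strain. Over all probe sets and strains, 0.688% of such comparisons were lower by that rule and 0.929% higher. The 39 comparisons share the 5 C57BL/6J arrays, so they are not independent of each other. Few probe sets behaved this way: 79 (0.317%) were lower by at least 1 in 20 or more strains, 0.108% in as many strains as Naip5, 0.0441% in as many as Naip6 and 3.39% in as many as Naip2. The median difference to C57BL/6J over the 39 strains was -1.44 for Naip5, -1.58 for Naip6, -0.19 for Naip2 and 0.08 for Nlrc4. All arrays of a strain lay below every C57BL/6J array in 35 strains for Naip5, in 35 for Naip6, in 9 for Naip2 and in 0 for Nlrc4, for which all arrays of a strain lay above C57BL/6J in 9.

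At any size, Naip5 and Naip6 were each lower in 34 of 39 strains and Naip2 in 5, against 4.70% of such comparisons over all probe sets. The 5 strains whose Naip5 did not pass were C57BL/10J, P/J, SEA/GnJ, titled C57BR and WSB/EiJ. SEA/GnJ minus C57BL/6J was 0.13, with a 95% interval from -0.14 to 0.41, and WSB/EiJ minus C57BL/6J was 0.08, from -0.19 to 0.36. P/J minus C57BL/6J was 0.05, from -0.23 to 0.33. For Naip6 the strains that did not pass were C57BL/10J, C57BLKS/J(662), P/J, SEA/GnJ and WSB/EiJ, with P/J minus C57BL/6J at 0.19, from -0.20 to 0.58. For Naip2 the 2 strains lower by at least 1 were PWD/PHJ and JF1/Ms. JF1/Ms arrays read 9.16 and 9.47, against 10.15 to 10.46 in C57BL/6J, a difference of -1.05 ± 0.13 (adjusted p = 2.9e-09) in a contrast where 1.52% of probe sets were lower by at least 1. That difference stands close to the limit of 1: without JF1/Ms replicate 2 the count of strains was 1. Nlrc4 was higher at any size in 2 strains, against 5.34% of such comparisons over all probe sets, with C57L/J (668) higher by 0.35 ± 0.12 (adjusted p = 0.0433) and NZB/BINJ higher by 0.33 ± 0.12 (0.0279).

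A/J, with the permissive Naip5 allele of the textbook, had intermediate Naip5 among the strains, at rank 19 of 40. Its arrays read 7.73 and 7.81 for Naip5, against 8.93 to 9.33 in C57BL/6J, with no overlap. The difference A/J minus C57BL/6J was -1.36 ± 0.14 for Naip5 (SE; 2.57-fold lower; adjusted p = 5.2e-11), in a contrast where 11.4% of probe sets passed in either direction and 0.650% were lower by at least 1. Naip6 was lower to a similar size, with A/J arrays at 7.05 and 7.33, against 8.44 to 8.89 in C57BL/6J, and a difference of -1.50 ± 0.19 (2.82-fold lower; 6.2e-08). Naip2 differed by -0.25 ± 0.13 (adjusted p = 0.243) and Nlrc4 by 0.16 ± 0.12 (0.499), and their arrays overlapped those of C57BL/6J. In the same contrast all 12 cell cycle genes passed as higher in A/J, with a median difference of 1.39. Of 8 T and NK cell markers 3 passed as higher, with Cd3d at 3.28. Of 10 monocyte and macrophage markers Csf1r passed as higher (0.55) and Adgre1 as lower (-1.45), with a list median of -0.01. Their part in the Naip values was not tested. Of the strains that read lower than A/J for Naip5, 129S1/SvImJ differed from C57BL/6J by -2.31 ± 0.14 (4.97-fold lower; adjusted p = 5.2e-19), where 0.562% of probe sets were lower by at least 1.

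The C57 family had higher Naip5 and Naip6 means than the 30 other classical groups, with titled C57BR in neither, by an amount that did not pass over all probe sets. Naip5 averaged 8.72 ± 0.33 in the 4 C57 family strains and 7.74 ± 0.54 in the 30 others (SD over strains), a difference of 0.98 ± 0.27 (SE; limma adjusted p = 0.0932). Naip6 averaged 8.30 ± 0.27 in the C57 family and 7.16 ± 0.58 in the others, a difference of 1.14 ± 0.28 (adjusted p = 0.0543). All 4 C57 family strains lay above the median of the others for Naip2, Naip5 and Naip6, and SEA/GnJ and P/J lay above all 4 C57 family strains for Naip5. In this contrast 0.534% of probe sets passed in either direction and 0.341% were higher. With titled C57BR counted in the family, Naip5 passed with a difference of 1.05 (adjusted p = 0.0193), while that of Naip6 was 0.82 (0.244). Naip6 passed among probe sets averaging 7 or more (adjusted p = 0.0371). It also passed with groups formed by the background label (0.0461), where the titled C57BR arrays, at 6.73, count as CBA/CaJ among the others. Over all alternatives its adjusted p ran from 0.0371 to 0.244. Naip2 differed by 0.17 ± 0.08 (adjusted p = 0.564) and Nlrc4 by 0.08 ± 0.07 (0.880). The monocyte and macrophage markers averaged 7.63 in the C57 family and 7.40 in the others, with none of 10 passing, and 1 of 8 T and NK cell markers passed, Cd3d at -2.54. Their part in the Naip values was not tested.

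**Figure D2:**
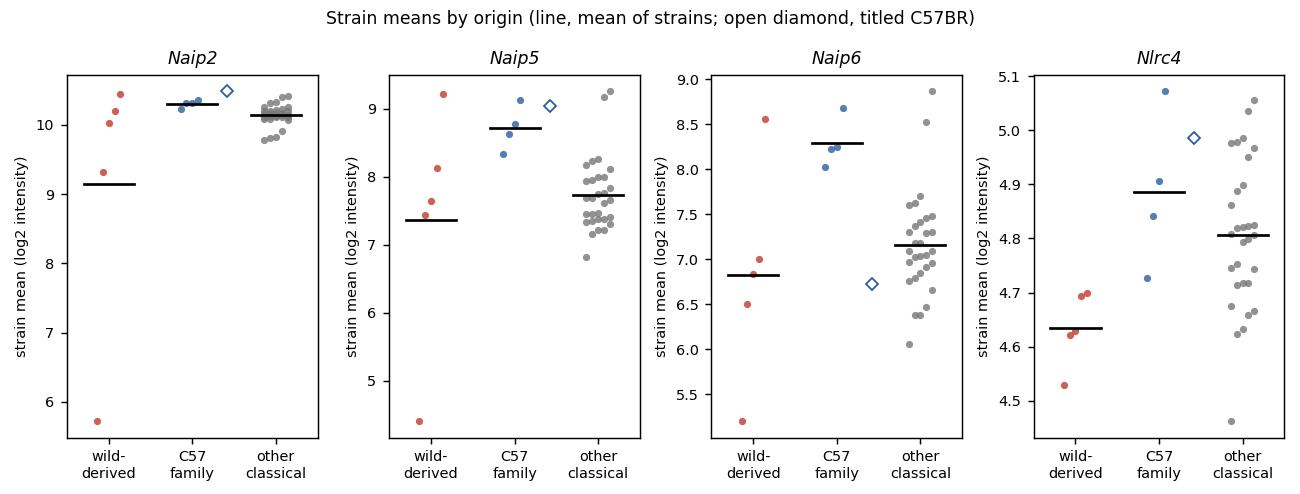
Strain means in log2 intensity (y axes, each with its own scale) of Naip2, Naip5, Naip6 and Nlrc4 in the 5 wild-derived strains, the 4 C57 family strains and the 30 other classical strains, with the mean of each group as a bar and titled C57BR, left out of the comparison, as an open diamond. PWD/PHJ is the lowest wild-derived point for the 3 Naip genes, and the 4 C57 family points lie above the median of the other classical strains for them.

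Wild-derived strains spanned nearly the whole range of the Naip genes, with PWD/PHJ at the bottom of all 3 and WSB/EiJ among the highest. Naip2 averaged 9.14 ± 1.96 in the 5 wild-derived strains and 10.17 ± 0.16 in the 35 classical strains (SD over strains), a difference of -1.03 ± 0.30 (adjusted p = 0.0183). It rested on PWD/PHJ, since without that strain the difference was -0.18 (adjusted p = 0.342). Naip5 averaged 7.37 ± 1.79 in wild-derived strains and 7.89 ± 0.63 in classical ones, a difference of -0.52 ± 0.38 (adjusted p = 0.414), and Naip6 averaged 6.82 ± 1.20 in wild-derived strains and 7.28 ± 0.66 in classical ones, a difference of -0.46 ± 0.34 (0.414). These too moved with single strains: the Naip5 difference was 0.22 without PWD/PHJ and -0.98 without WSB/EiJ, and that of Naip6 was -0.05 and -0.89, none of which passed. Nlrc4 averaged 4.63 ± 0.07 in wild-derived strains and 4.82 ± 0.14 in classical strains, a difference of -0.19 ± 0.06 (adjusted p = 0.0477), with all 5 wild-derived means below the classical median of 4.82. In this contrast 12.2% of probe sets passed. The Nlrc4 call was lost when any 1 wild-derived strain was left out, with differences from -0.20 to -0.16 and adjusted p from 0.0590 to 0.179. The monocyte and macrophage markers averaged 7.15 in wild-derived and 7.43 in classical strains. Of 10, those that passed were Csf1r, higher (0.45), and Vcam1, lower (-0.69). The cell cycle genes averaged 7.52 in wild-derived and 8.21 in classical strains, with a list median difference of -0.69. Of 12, only Pcna passed, as lower (-1.13). The part of these markers in the result was not tested.

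Of 6 pairs of related strains, tested for 4 genes each, 4 of 24 differences passed. NON/ShiLtJ against NOD/ShiLtJ held 3 of them, in a contrast where 5.78% of probe sets passed. Naip6 read 5.96 and 6.16 in NON/ShiLtJ, against 7.62 and 7.63 in NOD/ShiLtJ, a difference of -1.56 ± 0.23 (SE; adjusted p = 2.8e-06). Naip5 read 7.15 and 7.28 in NON/ShiLtJ, against 8.21 and 8.32 in NOD/ShiLtJ, a difference of -1.05 ± 0.16 (7.9e-06). Naip2 read 9.76 and 9.90 in NON/ShiLtJ, against 10.20 and 10.44 in NOD/ShiLtJ, a difference of -0.49 ± 0.15 (0.0384), which did not pass when any 1 of the 4 arrays was left out (adjusted p from 0.0502 to 0.317). In each of these the arrays of the strains did not overlap. In NOD/ShiLtJ against NOR/LtJ, where 5.56% of probe sets passed, Naip5 differed by 0.31 (95% interval -0.02 to 0.64) and Naip6 by 0.32 (-0.15 to 0.78). In CBA/J against CBA/CaJ (1.71% passed), Naip5 differed by -0.29 (-0.62 to 0.04). With groups formed by the background label it differed by -0.70 (adjusted p = 0.0112). That grouping counts the titled C57BR arrays, with a Naip5 mean of 9.04, as CBA/CaJ, which averaged 8.24 by title. In C3H/HeJ against CBA/J (1.14%) Naip5 differed by -0.11 (-0.44 to 0.22). In MRL/MpJ against LGJ (3.84%), Naip6 differed by 0.56 (0.09 to 1.03; adjusted p = 0.230).

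The fourth call was Naip5 in NZB/BINJ against NZW/LacJ, where 45.5% of probe sets passed. Naip5 read 7.43 and 7.87 in NZB/BINJ, against 7.09 and 7.22 in NZW/LacJ, a difference of 0.50 ± 0.16 (adjusted p = 0.0127). Without NZB/BINJ replicate 1, the array that stood apart, it was 0.72 (adjusted p = 0.00803), without NZB/BINJ replicate 2 it was 0.28 (0.229) and without NZW/LacJ replicate 2 it was 0.43 (0.0748). With all arrays set to a common median it was 0.36 (adjusted p = 0.120). The NZB/BINJ arrays themselves disagreed for Naip6, at 6.48 and 7.71, and for Naip2, at 9.40 and 10.22, the widest gaps between arrays of any strain of 2 arrays for these genes. For Naip6 the difference to NZW/LacJ was 0.18 ± 0.23 (adjusted p = 0.534) with both arrays, 0.80 (0.0181) without replicate 1 and -0.44 (0.122) without replicate 2. For Naip2 it was -0.32 ± 0.15 (0.0774), and -0.73 (0.00018) without replicate 2, 0.09 (0.726) without replicate 1 and -0.46 (0.0310) at a common median.

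Naip2, Naip5 and Naip6 varied together over strains, and no relation of Nlrc4 with them passed. Over the 40 strain means, Naip5 and Naip6 had a Pearson r of 0.82 and a Spearman rho of 0.74, Naip2 and Naip5 an r of 0.76 and a rho of 0.74, and Naip2 and Naip6 an r of 0.58 and a rho of 0.70. Each of these 6 values had a 2-sided permutation p of 1e-05, the smallest that 100000 resamples can give, and 2e-05 after adjustment over the 6 pairs of genes. Without the 2 strains farthest from the median of the first gene the r was 0.76, 0.73 and 0.64, and within the 35 classical strains it was 0.77, 0.74 and 0.61. Without PWD/PHJ alone it was 0.78, 0.60 and 0.60. Nlrc4 had an r of 0.20 with Naip2 (rho = 0.09, permutation p = 0.212, adjusted 0.318), 0.12 with Naip5 (rho = 0.17, p = 0.471, adjusted 0.565) and 0.09 with Naip6 (rho = 0.15, p = 0.567, adjusted 0.567). Nlrc4 read near the bottom of the intensity scale, which limits what its correlations can show. Inbred strains share ancestors, so the 40 means are not fully independent points.

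**Figure D3:**
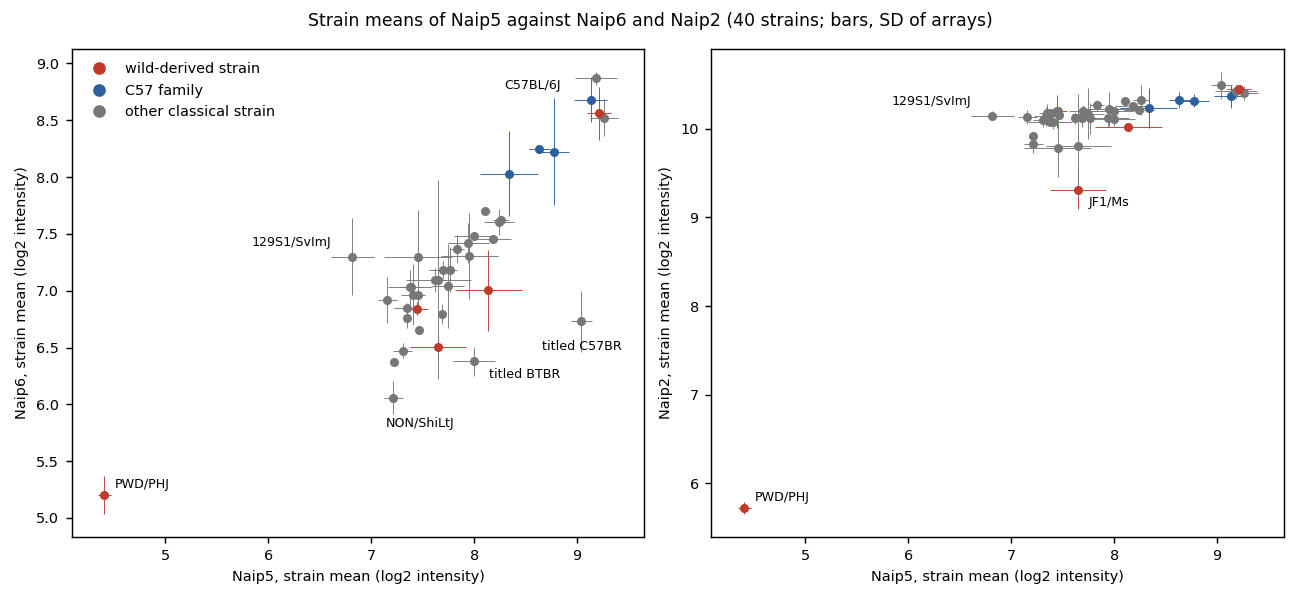
Strain means of Naip5 (x axes) against Naip6 (left) and Naip2 (right), all in log2 intensity, for 40 strains, with bars for the SD of a strain's arrays. Naip6 is higher where Naip5 is higher (r = 0.82), with titled C57BR off that course at a Naip5 of 9.04 and a Naip6 of 6.73, while Naip2 stays between 9.31 and 10.49 in every strain but PWD/PHJ.

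Single strains departed from the shared course of Naip5 and Naip6. Titled C57BR read 8.97 and 9.11 for Naip5, within the 8.93 to 9.33 of C57BL/6J, and 6.54 and 6.92 for Naip6, against 8.44 to 8.89 in C57BL/6J. Its difference to C57BL/6J was -0.09 ± 0.14 for Naip5 (adjusted p = 0.850) and -1.95 ± 0.19 for Naip6 (7.7e-11), where 0.353% of probe sets were lower by at least 1. Titled BTBR differed from C57BL/6J by -1.13 for Naip5 and by -2.30 for Naip6 (0.546% of probe sets lower by at least 1). 129S1/SvImJ went the other way, with -2.31 for Naip5 and -1.38 for Naip6, as did PWD/PHJ, with -4.73 and -3.48. The contrast of the 2 genes within a strain was not tested. Without PWD/PHJ, titled C57BR and titled BTBR, which were picked after their values were seen, the r of Naip5 and Naip6 was 0.90.

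By Pearson r over the 40 strain means, the Naip genes stood among each other's nearest companions, counting genes that reached a mean of 7 in some strain. For Naip5, the nearest of 10441 other genes were Naip6 (r = 0.82), Naip2 (0.76), Apeh (0.64), which encodes an acylpeptide hydrolase, 9830107B12Rik (0.60) and Ccndbp1 (0.55). For Naip6 they were Naip5 (0.82), Hgsnat (0.62), a lysosomal acetyltransferase gene, Dennd1b (0.59), Naip2 (0.58) and Atp6v0b (0.55), a subunit of the vacuolar proton pump. For Naip2 they were Naip5 (0.76), Apeh (0.74), Spidr (0.74), Lgals9 (0.73), the galectin-9 gene, and C130050O18Rik (0.73). Those of Naip2 and Naip5 outside the family rested largely on PWD/PHJ. Without it the r with Naip2 was 0.16 for Apeh, -0.01 for C130050O18Rik, 0.48 for Spidr and 0.50 for Lgals9, and the r with Naip5 was 0.31 for Apeh, 0.21 for 9830107B12Rik and 0.31 for Ccndbp1. For Nlrc4, among 10442 genes, they were Hacd1 (0.56), 1700001G17Rik (0.54), Stmn3 (0.54), Atxn7l3b (0.52) and Mettl23 (0.52). These are the highest of very many correlations and are given as a description.

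The spread of Naip5 and Naip6 was wider than that of any measured gene on either side, and that of Naip2 was so with PWD/PHJ included. Of the 20 nearest measured genes along chromosome 13, 10 on each side, 17 passed the test of strain differences and 8 also had a range of at least 1, against 56.0% and 24.5% of all probe sets. Their SD of strain means had a median of 0.17 and reached 0.48 in Mrps36, a mitochondrial gene, below the 0.73 of Naip2. The median over all probe sets was 0.14. Without PWD/PHJ, a choice made after seeing the data, 8 of the 20 neighbours had a higher SD than the 0.21 of Naip2 and none a higher one than Naip5 or Naip6, with Mrps36 highest at 0.49. Smn1, the survival motor neuron gene next to the cluster, had an SD of 0.39 and was lowest in MSM/Ms at 6.31, and Rad17, a DNA damage checkpoint gene, had one of 0.36 and was highest in JF1/Ms at 9.25. The other neighbours with a range of at least 1 were Gm807 (1.30), Ptcd2 (1.05), Cdk7 (1.41), Mrps36 (3.22), Cenph (1.73) and Slc30a5 (1.25). None of the 8 had its lowest or highest mean in PWD/PHJ, though Cenph read 4.62 both there and in JF1/Ms, its lowest strain. Smn1 read 7.23 in PWD/PHJ, against a median of 8.12 over strains, and Gm807 read 6.51, against 7.11. Mrps36 alone of the 8 read above its median there, at 5.74 against 5.70. The r of the 20 neighbours with Naip5 ran from -0.22 to 0.47, the highest in Marveld2, against 0.82 for Naip6. Around Nlrc4 on chromosome 17, 15 of 20 neighbours passed and 5 had a range of at least 1 (Lclat1, Memo1, Dpy30, Slc30a6 and Yipf4), against the same 56.0% and 24.5% of all probe sets, with a median SD of 0.17, against 0.15 for Nlrc4 itself, and their r with Nlrc4 ran from -0.33 to 0.42.

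**Figure D4:**
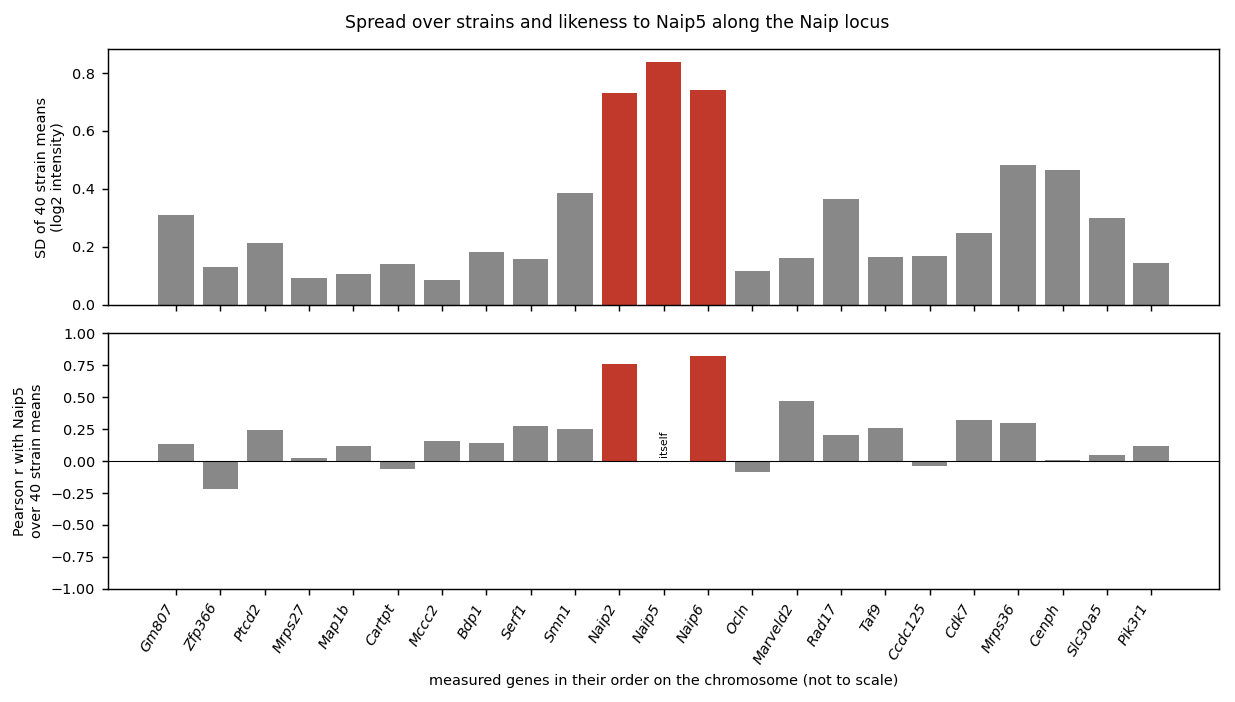
SD of the 40 strain means in log2 intensity (top) and Pearson r with Naip5 over those means (bottom) for the 3 measured Naip genes and the 10 nearest measured genes on each side, in their order on the chromosome and not to scale. The Naip genes have SDs of 0.73 to 0.84, against at most 0.48 for a neighbour, though the SD of Naip2 is 0.21 without PWD/PHJ, and the r of the neighbours with Naip5 stays at or below 0.47.

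Among the partners and relatives of the Naip genes, most spread less over strains than the flagellin sensors did. Of 45 genes listed around the pathway, 40 were measured, and Nlrp1a alone had a higher SD of strain means than the 3 Naip genes. Without PWD/PHJ, 19 of the 40 had a higher SD than Naip2, and 2, Nlrp1a and Nlrp1b, a higher one than Naip5 and Naip6. The counts that follow stand against 56.0% of all probe sets that passed the test of strain differences and 24.5% that also had a range of at least 1, or 42.5% of those averaging 7 or more. All 8 genes listed as downstream of Nlrc4 passed and 7 had a range of at least 1. The list includes Casp4, a caspase that is itself a sensor, of lipopolysaccharide, with an SD of strain means of 0.48. The SD was 0.42 for Pycard, the adaptor ASC, 0.42 for Il1b and 0.39 for Casp1. Casp4 was lowest in 129S1/SvImJ at 7.37, Pycard was lowest in NZB/BINJ at 7.59 and both were highest in CAST/EiJ, at 9.98 and 9.26. Of 16 other NLR genes 8 passed and 5 had such a range, with SDs of 1.18 for Nlrp1a and 0.72 for Nlrp1b, which senses anthrax lethal factor, 0.37 for Nlrx1 and 0.30 for Nlrp3. Of 4 other inflammasome sensors 3 passed and 2 had the range, with Aim2, a DNA sensor, at an SD of 0.52 and lowest in titled BTBR at 6.31.

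The regulators and the measured signalling genes of the surface flagellin pathway were more level. Of 5 genes listed for that pathway 3 were measured, and the receptor gene Tlr5 was not among them. All 3 passed, none with a range of at least 1, with SDs of 0.11 for Myd88, 0.17 for Irak1 and 0.19 for Traf6. Of 4 regulators of Naip or Nlrc4, 3 passed and none had the range. Irf8, which controls Naip transcription, averaged 6.92 with an SD of 0.12 and read 6.94 in PWD/PHJ, against 6.93 in C57BL/6J, and Spi1, the PU.1 gene, averaged 12.71 and read 12.75 in PWD/PHJ, against 12.62 in C57BL/6J. The r of Irf8 and Spi1 with Naip5 was -0.10 for each. All 5 interleukin-1 family receptor and antagonist genes passed and 3 had the range, with Il18r1 at an SD of 0.52, Il18bp at 0.46 and the decoy receptor gene Il1r2 at 0.39. Il1r2 was lowest in PWD/PHJ at 9.13 and had an r of 0.47 with Naip5.

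In A/J against C57BL/6J, Casp4 (-0.82), Casp1 (-0.59), Nlrp1b (-0.46), Aim2 (-0.56), Traf6 (-0.67) and Il1r2 (-0.54) fell, as did Naip5 and Naip6, and Il1b (0.88) and Spi1 (0.28) rose, as differences of log2 intensity that passed over all probe sets, 8 of 40 genes, against 11.4% of all probe sets. That made 1 higher and 2 lower of the 8 genes listed as downstream of Nlrc4, Casp4 included, with a list median of -0.22. In wild-derived against classical strains Il18 fell (-0.68) and Il18r1 rose (0.95), with Nod1 (0.44), Nek7 (0.38), Irak1 (0.24) and Nlrc3 (0.16) also higher and Myd88 (-0.17) lower, 7 of 40 genes, against 12.2% of all probe sets. In the C57 family against other classical strains none of the 40 genes passed in limma, in a contrast where 0.534% of all probe sets did, and 5 had an unadjusted p under 0.05.

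**Figure D5:**
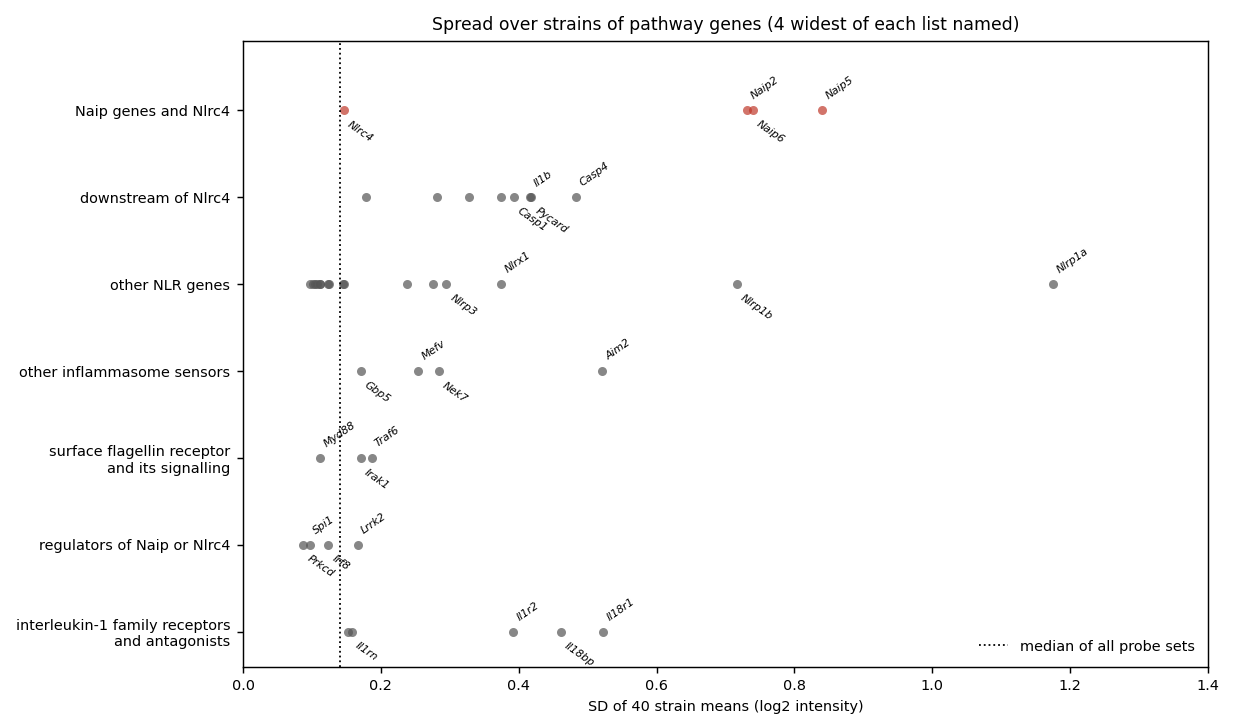
SD of the 40 strain means in log2 intensity (x axis) for the 4 measured Naip and Nlrc4 genes (top row) and for the 40 measured genes of 6 pathway lists (other rows), 1 point per gene, with up to 4 widest genes of each list named and the median of all probe sets as a dotted line. Naip2, Naip5 and Naip6 lie to the right of every listed gene but Nlrp1a, with Nlrp1b close to Naip2 (whose SD is 0.21 without PWD/PHJ), and Nlrc4 lies close to the median of all probe sets.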

How the data were processed

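Per the labels, TriZol RNA of sorted neutrophils was biotin-labelled with a WT Terminal Labeling kit for Affymetrix ST1.0 arrays. The authors deposited 1 intensity per probe set and array. Affymetrix Power Tools and RMA appear in the submitters' processing notes with no version, and the values (5.30 to 19348, array medians 97.2 to 114.8) show a linear scale. The deposited intensity values were converted to log2 here and not scaled further. Precision is limited by the number of arrays. The series design calls the samples of a strain biological replicates, each from pooled mice. The genome build behind the probe sets is not given in the sources used here.

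Names came from the array platform's annotation (1 symbol for 21425, several for 1399, none for 2098). A gene with several probe sets was read from the brightest. Promoter windows, gene order and names came from RefSeq tables of build GRCm38.p6, with 19677 of 19752 genes matched. Windows were aligned locally with Biopython 1.88.

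Tests used limma 3.58.1 in R 4.3.3 (lmFit and eBayes) on log2 intensity over all 24922 probe sets, with Benjamini-Hochberg adjustment over all of them, and a call was an adjusted p under 0.05. The F tests between strains came from a model with 1 mean per title group over 81 arrays (41 residual and 7.93 prior degrees of freedom). Single strains and pairs were contrasts of that model, and groups of strains were compared on strain means. Correlations used permutation tests in SciPy 1.17.1. The test was tried on simulated data before use. No arrays were identical (highest r 0.997).

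Named genes were all members, the 5 genes most like each by r, locus neighbours called with a range of at least 1, and up to 4 genes of each list by SD. Members and lists were chosen with earlier results of these data known. Replicate numbers did not pair the samples in a consistent way. Alternatives changed the normalization, scaling, variance prior, filter, offset, labels, replicate block and single arrays or strains.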

Additional observations from a re-analysis of the deposited data

Results flagged for a closer look

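Among the 5 wild-derived strain means of Naip2, PWD/PHJ at 5.72 lay far from the nearest of the others, JF1/Ms at 9.31. The gap was 0.76 of the whole range, above the critical value of 0.71 for 5 samples. It was 1 of 24 lowest or highest values checked in this way over genes and groups, and chance alone marks about 1 in 20 groups.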

How the results depend on the processing

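No called result turned its direction under the alternatives run. For the main comparisons 827 alternative values kept their side of the threshold or their size, while 16 did not. Among further values, such as F tests of single genes and single pair differences, 350 did so, while 4 became stronger and 11 weaker. Kept values include counts that changed a little, such as genes passing the F test, 3 without NZB/BINJ replicate 1 and 4 without replicate 2. The number of strains lower than C57BL/6J by at least 1 was 24 to 29 for Naip5 and 27 to 32 for Naip6 over the processing alternatives, and 27 to 30 and 31 to 33 with single arrays left out. For Naip2 it was 2, and 1 with the replicate block, with a range of 1 to 2 over single arrays left out. Without PWD/PHJ (added after seeing the data) it was 1 by construction, since PWD/PHJ is 1 of the 2 strains counted. With single strains left out, the wild-derived minus classical difference of Naip2 ran from -1.36 to -0.18 and that of Nlrc4 from -0.20 to -0.16. Those of Naip5, from -0.98 to 0.22, and Naip6, from -0.89 to -0.05, passed in no case, and the Nlrc4 call was also lost with log2(value + 16), at -0.12, and without the groups of conflicting labels, at -0.18. The C57 family minus other classical difference passed for Naip5 with titled C57BR counted in the family, at 1.05. For Naip6 it passed with probe sets of a mean of at least 7, at 1.14, and with the replicate block, at 1.15. It also passed for Naip6 by background label, at 1.15, where the titled C57BR arrays count as CBA/CaJ among the others. With titled C57BR counted in the family, the Naip6 difference was 0.82 (adjusted p = 0.244), its lowest value. Of 40 locus neighbours 32 passed, against 56.0% of all probe sets. Where probe sets with a mean under 7 were not tested, 19 passed, which were all the neighbours left. Nlrc4 had no value under that filter.

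Replicate numbers shared between strains did not pair the samples in a consistent way. Over 595 pairs of groups the deviations of same-numbered arrays had a median correlation of 0.02. The correlations ran from -0.57 to 0.70, and 31.6% were over 0.1. With the replicate number as a block, 4 of the 4 measured genes passed the test of strain differences. The share of all probe sets that passed with the block was not counted, and without it 56.0% passed. Without the block, 3 to 4 of the genes passed with single arrays left out. With the block, the count of strains lower than C57BL/6J was 27 for Naip5 and 31 for Naip6, and 4 of 24 pair differences passed. The median of all probe sets moved by at most 0.10 under another scaling. Nlrc4 was dim, and detection calls were not used here. Most strains rest on 2 arrays.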

Other observations

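With PWD/PHJ left out, a choice made after its values were seen, the 3 genes most like each of the members over the other 39 strain means were partly different. For Naip2 they were Mcm3ap (r = 0.69), Rnpc3 (0.69) and Cdkl3 (0.67). For Naip5 they were Naip6 (0.78), Parp3 (0.63) and Arhgap31 (0.61), and for Naip6 they were Naip5 (0.78), Naip2 (0.60) and Hgsnat (0.57). For Nlrc4 they were Hacd1 (0.58), 1700001G17Rik (0.54) and Enoph1 (0.53).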
